A study of Mus musculus with 6 samples.

Results

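Pnliprp2, Pnliprp1, Pnlip, Clps, Cel and Cela1 encode lipases, colipase and an elastase that are best known as secretions of the exocrine pancreas, and they were followed here in mouse colon. They comprise 6 gene symbols chosen by name, of which 5, among 18193 named genes in all, had at least 1 probe set in the array's annotation. Every such probe set was taken, which gave 7 of the 45101 on the array: 2 for Pnliprp2, 2 for Clps, and 1 each for Pnliprp1, Cel and Cela1. Pnlip had no probe set under its symbol in the annotation used and was not analysed here. The genes had been singled out with their difference between the groups already known, so that difference is given for them as a description, without a test.

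Control colon was compared with colon of mice labelled HDAC2 KO, with 3 arrays in each group and 1 numbered mouse behind each array. In the HDAC2 KO group the floxed gene of the histone deacetylase HDAC2 was deleted by villin-Cre, a recombinase made in the intestinal epithelium, so other cells of the colon keep the gene. The mice of both groups had a mixed background (CD-1/129/C57BL/6), were untreated and ate a normal diet. Their age, and whether the controls carried the floxed gene or the Cre, are not given in the sources used here. Source labels name epithelium, whereas the extraction protocol names RNA of the colon, and the description label of the HDAC2 KO group also names HDAC1.

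Hdac2 itself, as a check of the labels, read 10.40, 10.37 and 10.43 in control and 10.21, 10.12 and 10.24 in HDAC2 KO at the brightest of its 3 probe sets. Every HDAC2 KO array was thus lower, by 13.7% in mean signal (adjusted p = 0.00893 in limma). Of all 10916 genes tested, 17.7% were likewise lower without overlap, so this is a weak check of the labels. A second Hdac2 probe set differed by -0.22, and the third, near background, by -0.08. Where these lie relative to the deleted part was not analysed here, so the size of the loss in epithelial cells cannot be read from them.

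Pancreatic triglyceride lipase, encoded by Pnlip, splits dietary triglycerides in the gut lumen, and colipase, encoded by Clps, is the small cofactor that anchors it to fat droplets coated with bile salts. Its relative PNLIPRP2 also splits phospholipids and galactolipids and in mice is made outside the pancreas as well, including in lymphocytes, while PNLIPRP1 has little known lipase activity. Carboxyl ester lipase, encoded by Cel, is activated by bile salts and hydrolyses cholesteryl esters, vitamin esters and triglycerides. CELA1 is a serine protease of the chymotrypsin-like elastase family. In pancreatic acinar cells such genes are switched on by the factor PTF1, which binds an E-box joined to a second half-site, and by NR5A2.

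The upstream sequences of 3 genes are shown because the genes differ in their colon signal and in the acinar motifs they hold. Each is the 250 bases before the annotated transcription start in RefSeq (build GRCm38.p6), written 5′ to 3′ on the gene's own strand, with capitals at every match to a motif searched on both strands. The motifs were the TATA box TATAAA, the E-box form CACCTG, a PTF1 composite in which this E-box form is followed after any 4 bases by TTTCCC, the NR5A2 core AGGTCA, the GATA factor core GATAAG and the CDX2 core TTTATG. A match to the composite thus always overlaps one to the E-box form. Pnliprp2 lies at chr19:58759473-58759722 on the plus strand, Cela1 at chr15:100687921-100688170 on the minus strand and Cel at chr2:28563404-28563653 on the minus strand.
Pnliprp2: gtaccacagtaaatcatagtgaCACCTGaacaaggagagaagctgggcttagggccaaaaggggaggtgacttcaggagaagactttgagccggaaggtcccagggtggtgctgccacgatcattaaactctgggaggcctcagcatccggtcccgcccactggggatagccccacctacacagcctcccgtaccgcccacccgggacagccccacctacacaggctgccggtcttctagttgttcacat
Cela1: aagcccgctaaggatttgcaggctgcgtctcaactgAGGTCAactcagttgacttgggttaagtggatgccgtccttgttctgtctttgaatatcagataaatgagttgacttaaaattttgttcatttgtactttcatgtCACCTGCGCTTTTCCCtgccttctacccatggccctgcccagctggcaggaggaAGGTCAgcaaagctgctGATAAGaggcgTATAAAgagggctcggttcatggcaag
Cel: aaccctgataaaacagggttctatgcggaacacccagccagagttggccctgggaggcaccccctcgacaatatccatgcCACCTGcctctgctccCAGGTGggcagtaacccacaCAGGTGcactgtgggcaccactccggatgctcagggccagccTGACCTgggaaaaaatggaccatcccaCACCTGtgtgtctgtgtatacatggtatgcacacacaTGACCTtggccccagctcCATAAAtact

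The Cela1 window held the whole composite, CACCTGCGCTTTTCCC, from 109 to 94 bases before the start, followed by the NR5A2 core, the GATA core and a TATA box that began 27 bases before the start. It held the NR5A2 core 2 times, the other being upstream of the composite. Of 32851 promoter windows of this length, 4 (0.0122%) held the composite: those of Cela1, the trypsinogen gene Prss1, Gm5771 and Esp18. The composite is known from acinar genes, so its presence at Cela1 is background rather than a result. The Pnliprp2 window held the E-box form 1 time, at 228 to 223 bases before the start, and none of the other 5 motifs. The Cel window held the E-box form 4 times over both strands, the NR5A2 core 2 times and the CDX2 core 1 time. For comparison, the E-box form was found in 17.2% of all windows, the NR5A2 core in 14%, the TATA box in 12.4%, the CDX2 core in 10.8% and the GATA core in 6.55%. The Pnliprp1 window held no match, and that of Pnlip held a TATA box and a GATA core. A match is a string of letters, and binding was not measured.

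Of the genes with a probe set, 3 of 5 gave clear signal in the colon: Cela1, Pnliprp2 and Clps. Signal is the RMA log2 value of a probe set, and the level under which genes were left out of the test was 6.66, the 40th percentile of the means of all genes. As a yardstick, 70 probe sets of 41 genes typical of organs such as liver, heart, testis or eye had means with a median of 4.65 and a 90th percentile of 7.22. Cela1 exceeded all of these 70 probe sets on every array. The leading Pnliprp2 probe set exceeded between 95.7% and 97.1% of them, and both Clps probe sets 97.1%. The probe sets above them belonged to Ttr (highest mean 10.99), which thus does not serve as a background gene in these samples. The source of its RNA was not tested. Without Ttr and Tnnt2, left out after their values were seen, the highest mean was 7.34. Cel exceeded between 74.3% and 82.9% of the 70 and Pnliprp1 between 58.6% and 74.3%, and both lay below the level of 6.66. Probe sets bind with different strength, so these shares place a probe set against background and do not rank the genes by abundance.

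**Figure D1:**
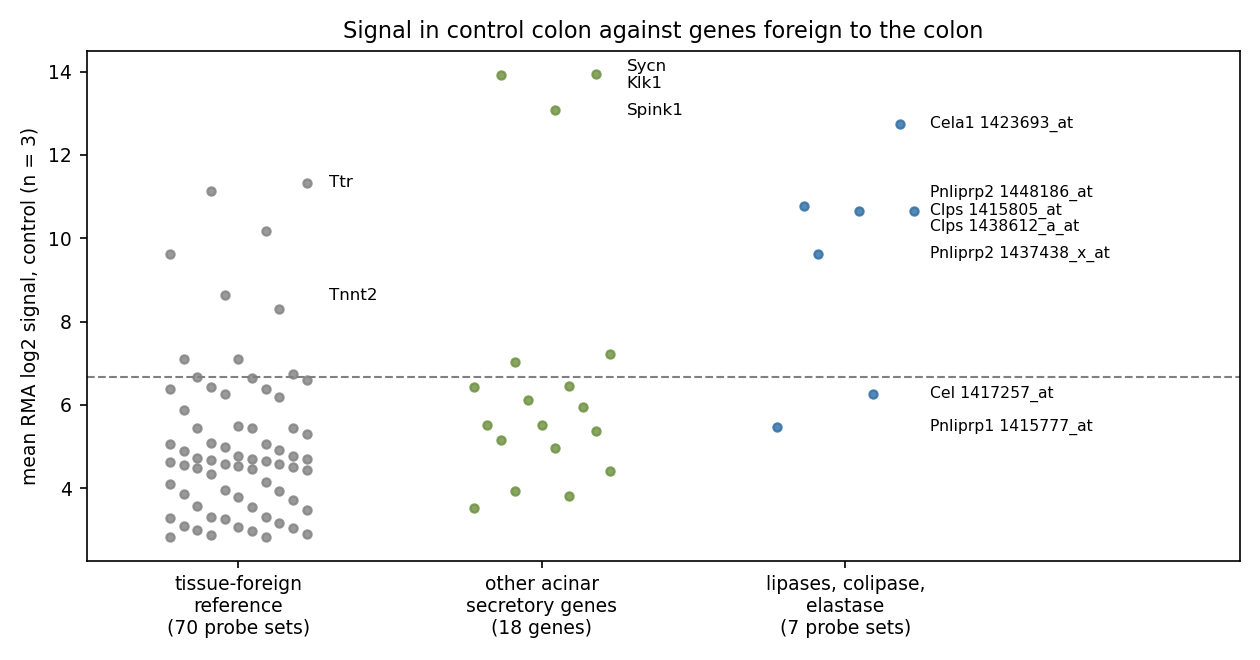
Mean RMA log2 signal of the 3 control arrays (vertical axis) for 70 tissue-foreign probe sets, 18 other acinar secretory genes and the 7 lipase, colipase and elastase probe sets, 1 point each, with the filter level of 6.66 dashed. Cela1, Pnliprp2 and Clps stand well above the line, and Cel and Pnliprp1 lie below it, within the range of both other columns.

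Pnliprp2, the lipase of broad substrate range, showed the largest difference of the genes followed. Its leading probe set, the one of higher mean signal, read 10.81, 10.77 and 10.72 in control replicates 1 to 3 and 9.58, 9.56 and 9.54 in HDAC2 KO replicates 1 to 3. The groups did not overlap, and the gap between the lowest control and the highest HDAC2 KO array was 1.14, against a range of 0.091 within control and 0.046 within HDAC2 KO. The difference, HDAC2 KO minus control, was -1.21 (SE 0.048), or 2.31-fold, which is 56.8% less signal. The second probe set, of a type (x_at) with probes that may bind other transcripts too, read 9.66, 9.62 and 9.60 in control and 8.36, 8.32 and 8.37 in HDAC2 KO. Its difference was -1.27 (SE 0.046), or 58.6% less signal, close to that of the first. Ranked from the most negative difference, Pnliprp2 was at place 22 of 10916 genes tested.

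Clps, the gene of colipase, was also lower on every HDAC2 KO array. Its leading probe set read 10.70, 10.68 and 10.61 in control and 10.00, 10.06 and 9.97 in HDAC2 KO. Its difference was -0.65 (SE 0.051), a 1.57-fold or 36.4% smaller signal. The second probe set read 10.71, 10.62 and 10.61 in control and 10.06, 9.96 and 10.01 in HDAC2 KO. Its difference of -0.64 (SE 0.053) is 35.7% less signal, so the probe sets gave nearly the same value. Clps was at place 83 of 10916 by the same ranking.

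Cela1, the elastase gene, gave the highest signal of the 7 probe sets and a small difference. It read 12.75, 12.78 and 12.74 in control and 12.52, 12.58 and 12.47 in HDAC2 KO. The groups were apart by 0.16 at their nearest arrays, and HDAC2 KO varied more (SD 0.057) than control (SD 0.024, n = 3 each). The difference was -0.23 (SE 0.050), or 14.9% less signal, and the place was 494 of 10916.

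The remaining lipases gave values at the low end of the array. Pnliprp1 read 5.28, 5.59 and 5.50 in control and 4.88, 5.07 and 5.04 in HDAC2 KO, a difference of -0.46 (SE 0.090). Its groups did not overlap, but between 28.5% and 40.2% of all probe sets of an array read lower, a range where background correction compresses differences and a fold has little meaning. Cel read 6.34, 5.97 and 6.47 in control and 6.02, 6.17 and 6.19 in HDAC2 KO. Its groups overlapped, and the difference of -0.13 had an SE of 0.13. By signal level, neither Cel nor Pnliprp1 RNA was distinguishable from background in these colon samples. Why the Pnliprp1 groups nevertheless lay apart was not tested.

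**Figure D2:**
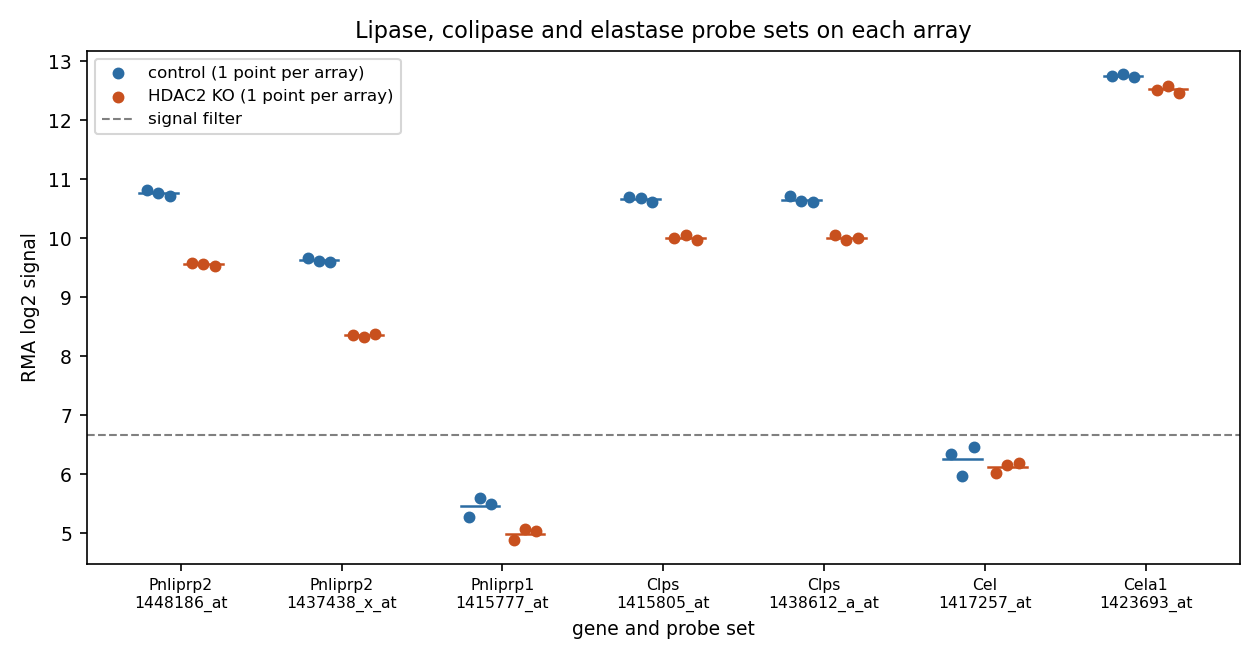
RMA log2 signal (vertical axis) of the 7 probe sets on each of the 3 control and 3 HDAC2 KO arrays, 1 point per array, with a line at each group mean and the filter level of 6.66 dashed. The HDAC2 KO arrays lie below all control arrays for 6 of the probe sets and overlap with them for Cel.

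Lower and not overlapping were thus 6 of 7 probe sets, or 4 of 5 genes. Of all 10916 genes tested, 17.7% were lower without overlap. The genes were chosen on this contrast, so nothing is read from their share, and only Pnliprp2, Clps and Cela1 were among the genes tested. The 3 expressed genes shared the direction and not the size. Taking the leading probe sets, the sizes of the differences of Pnliprp2 and Clps were 0.56 apart on the log2 scale, and those of Clps and Cela1 0.42 apart. Within control, replicate 1 was highest and replicate 3 lowest for all 4 probe sets of Pnliprp2 and Clps, while Cela1 was highest in replicate 2. Among HDAC2 KO arrays no such common order appeared: replicate 1 was highest for the leading Pnliprp2 and second Clps probe sets, replicate 2 for the leading Clps probe set and Cela1, and replicate 3 for the second Pnliprp2 probe set.

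For each expressed gene, the 3 genes with the most similar profile over the 6 arrays were taken, by the root mean square (RMS) difference of profiles centred on their own mean. Nearest to Pnliprp2 were Reg4, a secreted lectin of deep crypt secretory cells (RMS 0.031, difference -1.18), the interferon-inducible gene Ifi27l2a (RMS 0.032, difference -1.19) and Scd1, the stearoyl-CoA desaturase (RMS 0.043, difference -1.13). Nearest to Clps were the calpain gene Capn13 (RMS 0.031, difference -0.63), the B cell gene Ms4a1 (RMS 0.035, difference -0.68) and Serpina1b, an alpha-1-antitrypsin gene (RMS 0.041, difference -0.66). Nearest to Cela1 were Slc25a42, a mitochondrial carrier (RMS 0.017, difference -0.23), Rasgrp3 (RMS 0.019, difference -0.24) and Ebpl (RMS 0.019, difference -0.26). Pnliprp2 and Clps were themselves far apart by this measure (RMS 0.28), since their differences were unequal. The second probe set of Pnliprp2 lay at RMS 0.040 from the first, and that of Clps at 0.053, so the nearest genes were about as close as another probe set of the same gene. Profiles over 6 arrays in 2 groups are alike wherever the difference is of the same size, and the named genes span several cell types.

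Most other secretory genes of the pancreatic acinus lay below the filter, while a few gave strong signal. Of 27 such genes listed, 18 had a probe set and 5 were tested, of which 1 was called lower and 0 higher. Called means a Benjamini-Hochberg adjusted p under 0.05 in limma over all 10916 genes tested, where 17.9% were called, 8.20% lower and 9.68% higher. The 13 genes below the filter had control means between 3.52 and 6.45, and the groups overlapped for 11 of them. The other 2 were higher on every HDAC2 KO array, without a test. Reg1, which encodes a secreted lectin of the Reg family, read 5.13, 5.25 and 5.04 in control and 6.55, 6.45 and 6.50 in HDAC2 KO, a difference of 1.36 and opposite in direction to the lipase genes followed. The trypsinogen gene Prss3 differed by 0.035, from a mean of 3.52. Cpa1, a procarboxypeptidase gene, read 5.95 in control and 6.01 in HDAC2 KO, and Cpb1 of the same family 3.82 and 3.84. The elastase gene Cela2a read 3.94 and 3.97, and the chymotrypsinogen gene Ctrb1 6.42 and 6.45. Strong signal came from Sycn, Klk1 and Spink1, which the gut is also known to express. Spink1, encoding a trypsin inhibitor, was at 13.07 ± 0.026 (SD, n = 3) in control and 12.78 ± 0.079 in HDAC2 KO and so fell 1.22-fold (adjusted p = 0.00363 in limma). Sycn, a zymogen granule protein gene, differed by -0.08 (adjusted p = 0.12) and the kallikrein gene Klk1 by -0.07 (adjusted p = 0.213), both uncalled. The elastase gene Cela3b differed by -0.08 (adjusted p = 0.393) and the trypsinogen gene Prss2 by 0.05 (adjusted p = 0.729). The median difference of the 5 tested was -0.08, against 0.0032 over all genes tested. Summed over the 18 genes, linear signal ran from 40386 to 41176 in control and from 36822 to 38209 in HDAC2 KO, most of it from Sycn, Klk1 and Spink1. The name pancreas-type describes the known source of these enzymes, and the source of their RNA in the colon samples was not tested. The acinar genes Cpa1, Cpb1, Cela2a and Ctrb1 lay under the filter. Cela3b passed it, at 7.22 in control and 7.15 in HDAC2 KO, as did Prss2, at 7.02 and 7.07. All these means lay below 7.34, the highest mean of the tissue-foreign probe sets without Ttr and Tnnt2. Neither gene thus stood clear of that background.

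Of the factors that drive acinar genes, some had signal in the colon and others lay under the filter. Ptf1a, which encodes the DNA-binding subunit of PTF1, read 3.69 in control and 3.80 in HDAC2 KO, and its acinar partner Rbpjl 6.17 and 6.22, all under the filter. Nr5a2 was well above it, at 9.65 in control and 9.62 in HDAC2 KO (adjusted p = 0.624). Of 12 regulators listed, 11 had a probe set and 7 were tested, with 1 lower, 0 higher and a median difference of -0.08. Foxa2, a forkhead factor of endoderm, fell 1.19-fold (-0.25, SE 0.036, adjusted p = 0.00261). Xbp1, a driver of secretory capacity, differed by -0.11 (adjusted p = 0.0537), Foxa3 by -0.10 (adjusted p = 0.101) and Gata6 by -0.08 (adjusted p = 0.141). The acinar factor gene Bhlha15 differed by 0.10 (adjusted p = 0.142) and Hnf4a, encoding a nuclear receptor of liver and gut, by 0.02 (adjusted p = 0.726). Islet markers gave 1 called gene of 3 tested, the glucagon precursor gene Gcg, which gut endocrine cells also express and which rose 1.13-fold (adjusted p = 0.0223), a call lost without the filter and when any array but HDAC2 KO replicate 2 was left out. The median difference of the 3 was -0.05. Ins2, the insulin gene, read 6.78 and 6.68 (adjusted p = 0.205), and Ppy, encoding pancreatic polypeptide, 8.82 and 8.76 (adjusted p = 0.595).

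Other enzymes that cut acylglycerols or their relatives changed in both directions. Of 30 listed, 27 had a probe set and 18 were tested, with 4 higher, 3 lower and 11 not called, and a median difference of 0.014. Lpl, encoding lipoprotein lipase of fat and muscle vessels, went from 10.86 ± 0.038 (SD, n = 3) to 9.44 ± 0.039 and so fell 2.66-fold (adjusted p = 2.43e-07 in limma). The carboxylesterase gene Ces1d fell 1.80-fold (adjusted p = 0.000256). Pla2g5, a secreted phospholipase A2 gene, rose by 0.38 on the log2 scale (adjusted p = 0.000608), and Aadac, an esterase gene, rose 1.26-fold (adjusted p = 0.000651). Lipf, which encodes gastric lipase, lay at 3.67 and 3.81, under the filter. Among 8 tested cofactors and regulators of lipases 1 was higher and 3 lower, with a median of -0.09. Apoc2, the activator of lipoprotein lipase, rose 1.70-fold (0.77, SE 0.043, adjusted p = 1.59e-05). The inhibitor genes G0s2 and Angptl4 fell 1.85-fold (adjusted p = 7.81e-05) and 1.41-fold (adjusted p = 0.00127), and the lipid droplet gene Plin2 fell 1.19-fold (adjusted p = 0.00242).

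Genes that take up and re-esterify the products of lipases were also mixed, with 5 higher and 4 lower of 16 tested and a median of 0.06. Apoa4 rose 4.50-fold (adjusted p = 1.05e-06) and Apoa1 3.51-fold (adjusted p = 1.40e-06), both apolipoprotein genes, and Fabp2, the intestinal fatty acid binding protein gene, rose 1.80-fold (adjusted p = 1.89e-06). The fatty acid translocase gene Cd36 fell 2.65-fold (adjusted p = 1.95e-07). The uptake genes under the filter were not tested. Of these, Fabp1 had means of 5.30 in control and 7.40 in HDAC2 KO. Fabp1, Mogat2 (difference 0.29) and Npc1l1 (0.22) were higher on every HDAC2 KO array, while Mogat1 (-0.06) and Mttp (0.08) overlapped. On the elastase side, 1 of 7 tested proteases, substrates and inhibitors was higher and 2 were lower, with a median of -0.08. The inhibitor genes Serpina1b and Wfdc2 fell 1.58-fold (adjusted p = 6.71e-05) and 1.11-fold (adjusted p = 0.0177), and Serpina3n rose 1.38-fold (adjusted p = 0.000384). The Serpina1b probe set is of the type that may bind other transcripts. The elastinolytic protease gene Ctss differed by -0.08 (adjusted p = 0.135). Elane, encoding neutrophil elastase, read 5.83 and 5.81, below the filter.

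**Figure D3:**
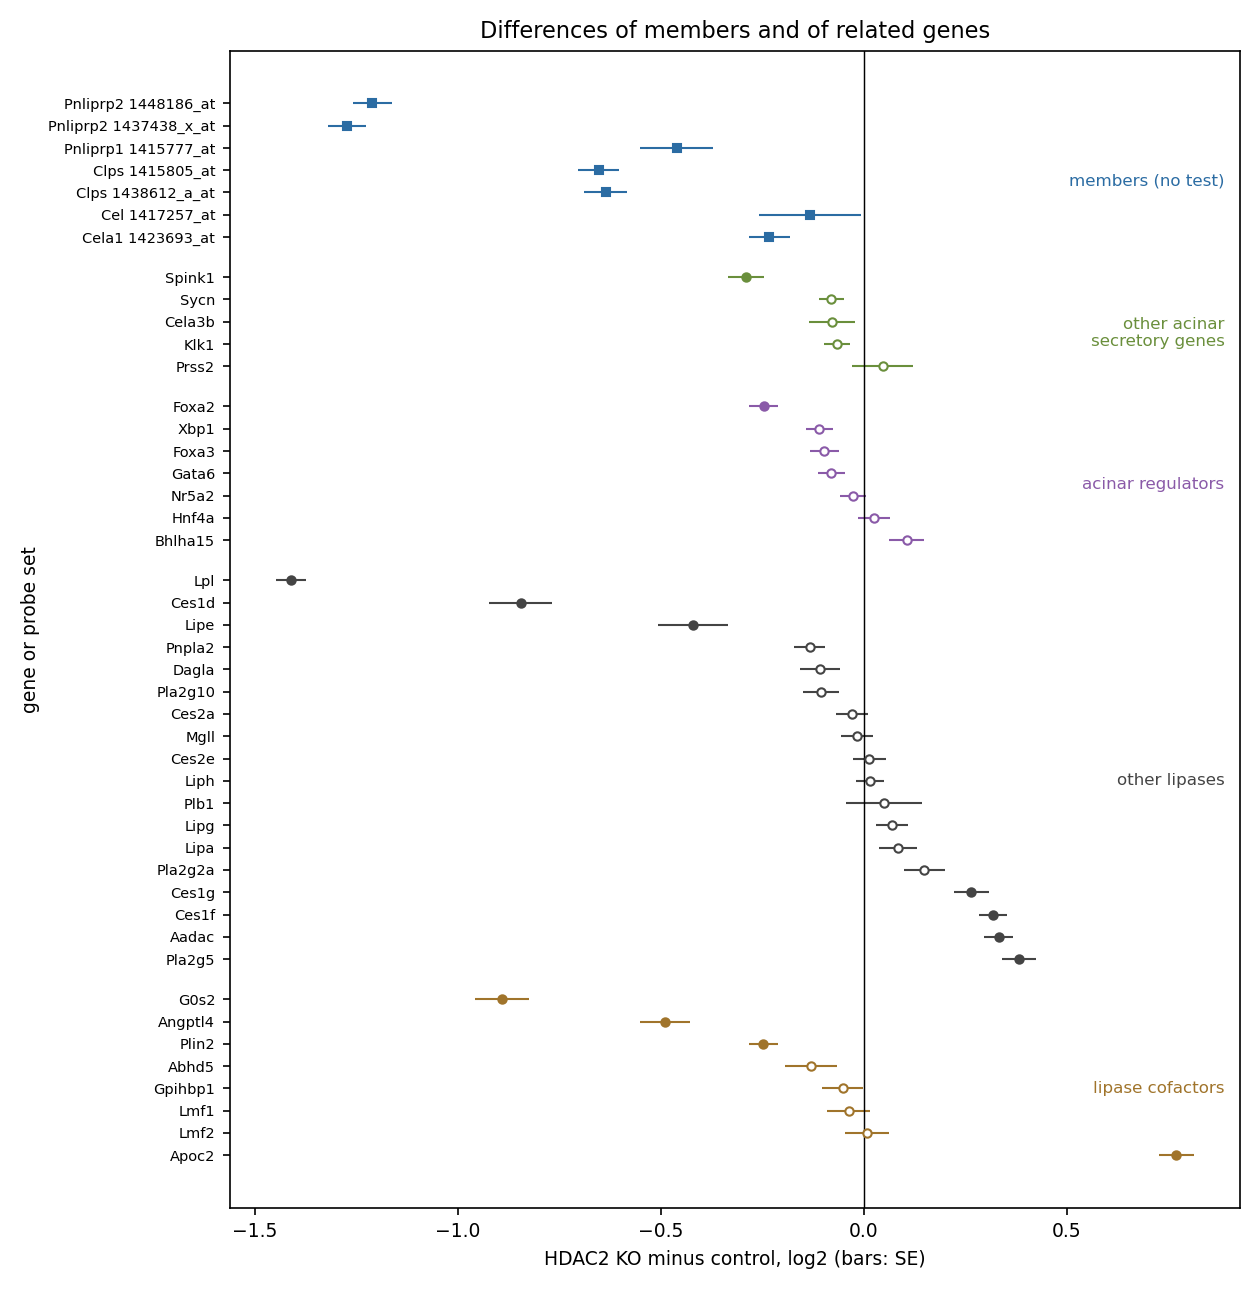
Difference between HDAC2 KO and control in log2 units (horizontal axis, bars show the SE) for the 7 lipase, colipase and elastase probe sets (squares, without a test) and for tested genes of 4 related lists (circles, filled where the limma adjusted p was under 0.05). The Pnliprp2 and Clps probe sets lie to the left of all other acinar secretory genes and acinar regulators plotted, while lipases of other kinds lie on both sides of 0.

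Pnlip, Pnliprp1 and Pnliprp2 are neighbours in gene order on chromosome 19, whereas Clps, Cel and Cela1 lie on chromosomes 17, 2 and 15. Of the 5 annotated protein-coding genes on each side of these 4 places, 40 in all, 19 were tested, and 4 were called higher and 1 lower. Over all genes tested, 17.9% were called, 9.68% higher and 8.20% lower, and nothing is read from so small a count. Beside the lipase genes, Atrnl1 was higher by 0.21 (adjusted p = 0.00587), while Hspa12a (adjusted p = 0.456), Shtn1 (adjusted p = 0.733) and Trub1 (adjusted p = 0.195) were not called. Beside Clps, Fkbp5 was higher by 0.28 (adjusted p = 0.00129) and Mapk13 by 0.24 (adjusted p = 0.00443), and Mapk14 fell by 0.18 (adjusted p = 0.0119). Beside Cela1, the mucin-type glycosyltransferase gene Galnt6 was higher by 0.13 (adjusted p = 0.031). Next to Cel, 0 of 5 tested genes were called. The neighbours were looked up after the values of the lipase genes were known.

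In bulk samples, fewer cells of a type and less RNA per cell cannot be told apart. Markers of several cell types moved with Pnliprp2, Clps and Cela1, and their part in the differences was not tested. Adipocyte markers fell in 7 of 7 tested cases with a median of -1.58, and their summed linear signal over 10 genes dropped from between 15848 and 16557 in control to between 4041 and 4365. The adipokine gene Adipoq fell 8.13-fold (adjusted p = 5.87e-09), Car3 6.83-fold (adjusted p = 5.87e-09) and Fabp4 4.35-fold (adjusted p = 1.95e-07). Lpl and Lipe stand both in this list and in that of the other lipases. T cell and intraepithelial lymphocyte markers fell in 5 of 7 cases with a median of -0.35, and their sum over 14 genes went from 2167 to 2170 in control to between 1240 and 1307. Among them Ms4a4b fell 6.33-fold (adjusted p = 1.35e-07), Cd3d 2.59-fold (adjusted p = 6.40e-06), Ccl5 1.67-fold (adjusted p = 1.04e-05) and Thy1 1.27-fold (adjusted p = 0.000909). The cytotoxic granule genes Gzma and Gzmb lay under the filter and were not tested. Gzma read 5.64, 5.77 and 5.74 in control and was higher on every HDAC2 KO array, at 6.08, 5.86 and 6.08. Gzmb had means of 5.69 and 5.61, and its groups overlapped. The other untested genes of this list were mostly lower. Cd3g (-1.84), Cd8b1 (-1.40), Cd247 (-1.02) and Nkg7 (-0.63) were lower on every HDAC2 KO array, and Cd8a (-0.02) overlapped.

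B cell markers fell in 6 of 6 cases with a median of -0.56, their sum over 8 genes going from between 11432 and 11620 to between 8054 and 8978. Most of that sum came from Jchain, at 13.05 in control and 12.76 in HDAC2 KO (adjusted p = 0.00669 in limma). Ighm fell 2.62-fold (adjusted p = 1.35e-07), Ms4a1 1.60-fold and Cd79b 1.62-fold (adjusted p = 2.02e-05 for both), and Cr2 1.22-fold (adjusted p = 0.00199). Of mast cell markers 2 of 3 fell, the protease genes Mcpt1 (3.83-fold, adjusted p = 6.61e-07) and Mcpt2 (3.25-fold, adjusted p = 1.67e-06), with a median of -1.70. The sum over 10 mast cell genes ran from 2261 to 2373 in control and from 1488 to 1599 in HDAC2 KO. The third, Kit, differed by -0.03 (adjusted p = 0.722). Macrophage markers gave 1 higher and 1 lower of 6 tested, with a median of -0.09 and sums of 5201 to 5419 in control and 5637 to 5830 in HDAC2 KO. The largest part of these sums came from Cd14, at 11.45 in control and 11.77 in HDAC2 KO. Cd14 rose 1.25-fold (adjusted p = 0.000602), Csf1r fell 1.23-fold (adjusted p = 0.000832), and C1qb and Mrc1 differed by -0.17 (adjusted p = 0.08) and -0.10 (adjusted p = 0.122).

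Epithelial markers had strong signal in both groups. Of 12 tested, 4 rose and 0 fell, with a median of 0.09, and their sum ran from 112956 to 114152 in control and from 121815 to 125844 in HDAC2 KO. The carbonic anhydrase gene Car1 rose 1.38-fold (adjusted p = 8.60e-05), the keratin gene Krt20 1.40-fold (adjusted p = 9.11e-05), the homeobox gene Cdx2 1.15-fold (adjusted p = 0.0036) and the aquaporin gene Aqp8 1.13-fold (adjusted p = 0.0083). Paneth and deep crypt secretory markers were divided, with 1 higher and 2 lower of 8 tested, a median of 0.017 and sums over 9 genes of 66551 to 67354 and of 62561 to 64137. Reg4, whose profile was nearest to that of Pnliprp2, stood at 13.26 ± 0.020 (SD, n = 3) in control and 12.09 ± 0.044 in HDAC2 KO and fell 2.26-fold (adjusted p = 4.82e-07 in limma). Lyz1, encoding lysozyme, fell 1.23-fold (adjusted p = 0.00113), the intelectin gene Itln1 rose 2.91-fold (adjusted p = 2.46e-05), and Agr2 differed by 0.10 (adjusted p = 0.0628). Among the tissue-foreign genes 5 passed the filter, 1 higher and 2 lower, with a median of 0.04. Ttr, encoding transthyretin, fell 1.59-fold (adjusted p = 1.22e-05) and Tnnt2 1.17-fold (adjusted p = 0.00984), Myl7 rose 1.41-fold (adjusted p = 0.00172), and Pmel differed by 0.19 (adjusted p = 0.0749).

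**Figure D4:**
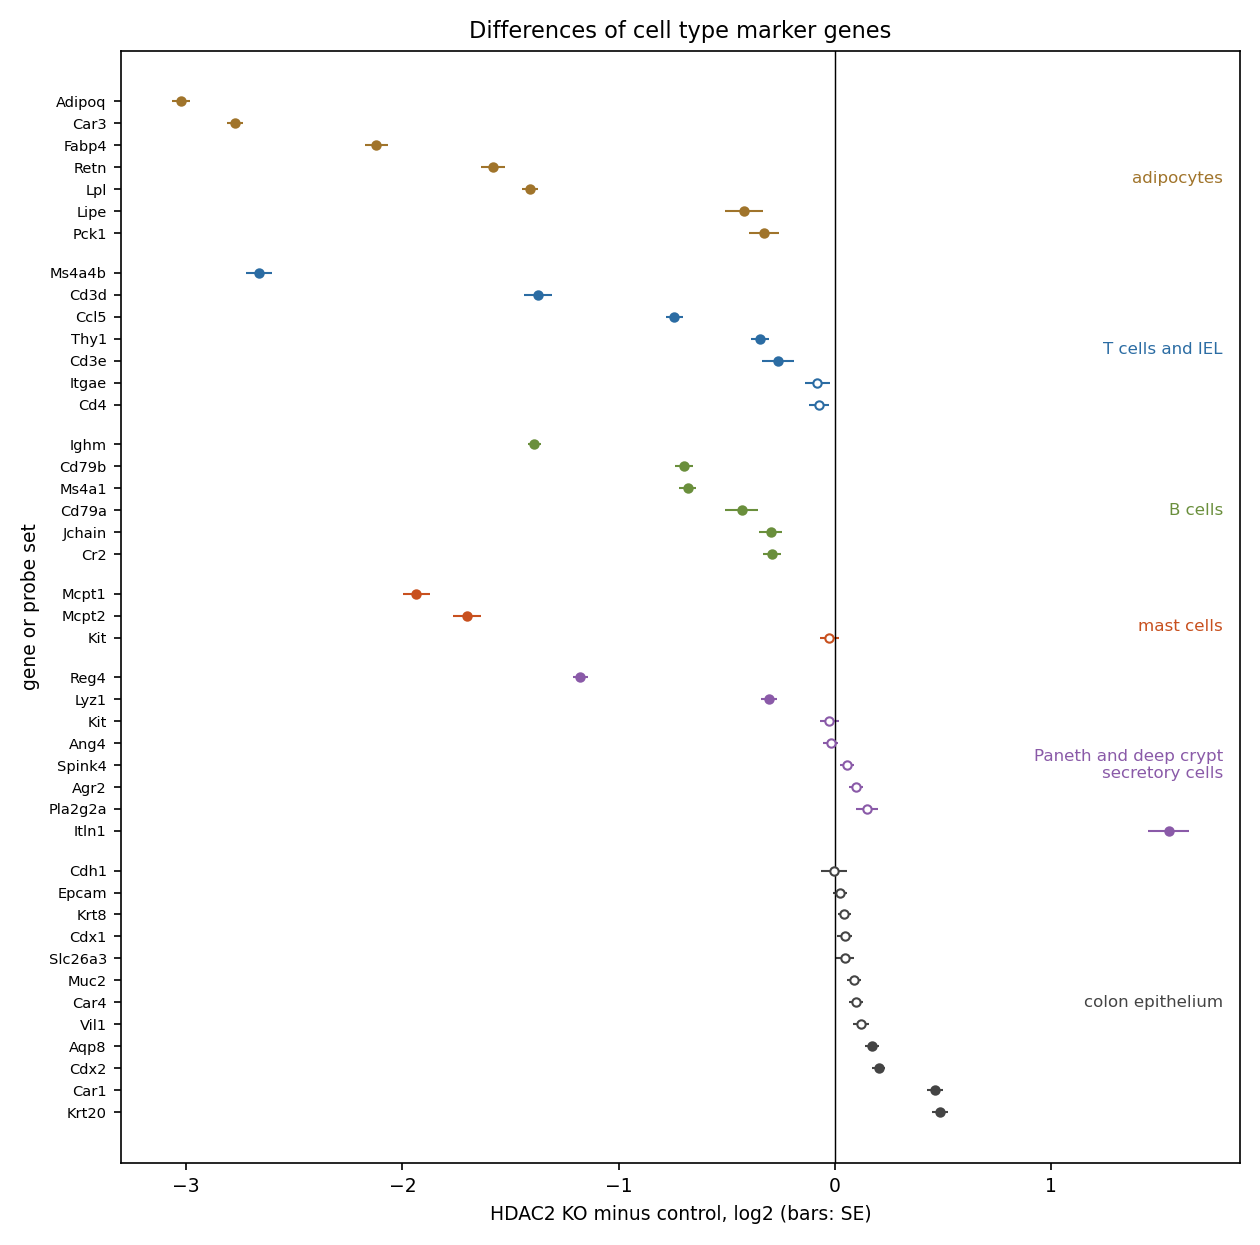
Difference between HDAC2 KO and control in log2 units (horizontal axis, bars show the SE) for the tested marker genes of 6 cell types, filled where the limma adjusted p was under 0.05. All plotted adipocyte and B cell genes lie to the left of 0, and the called epithelial genes lie to the right.

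Array medians lay between 6.17 and 6.21. In all, 1952 of 10916 genes were called. The labels name 1 mouse per array and no separate litters or days, so the p-values measure the spread between these samples.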

How the data were processed

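Biotin-labelled cRNA of 3 control and 3 HDAC2 KO colon samples was hybridised, each to its own Affymetrix array (one-colour, mouse). Deposited were log2 signals that the authors made with RMA (version not stated), per the submitters' processing notes; the log2 scale was read from the values. RMA corrects background, quantile-normalizes and summarises per probe set, which hides any change in total RNA and understates differences at low signal. Detection calls, scan dates and a genome build are not given in the sources used here, and no batch was tested. The number of arrays limits the precision.

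Genes were named by the annotation of the platform as of 2016, which gave 34945 probe sets 1 symbol, 932 several and 9160 none, beside 64 array controls. Each of 18193 genes was represented by its probe set of highest mean, and the 10916 genes at or above the 40th percentile (6.66) were tested by limma (version 3.58.1 under R 4.3.3; lmFit, then eBayes, with a term for group), the p-values being adjusted by Benjamini-Hochberg over all of them. Every adjusted p is from this fit, n = 3 per group. SEs of the lipase, colipase and elastase probe sets come from the same model over all probe sets. The fit was tested on simulated data with independent noise and planted differences larger than that of Cela1. Smaller differences, and deviations shared by the genes of an array, were not simulated.

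The genes followed and the 15 lists were chosen with earlier results of these data known. Named are the 6 genes, up to 4 tested genes of each list with the smallest p, and the 3 genes of most similar profile, leaving out clone and predicted-gene names. Other list genes named (Reg1, Prss3, Cpa1, Cpb1, Cela2a, Ctrb1, Prss2, Ptf1a, Rbpjl, Nr5a2, Bhlha15, Hnf4a, Lipe, Lipf, Elane, Gzma, Gzmb) and the chromosomal neighbours were picked after their values were seen. The same holds for Cd3g, Cd8a, Cd8b1, Cd247, Nkg7, Jchain, Fabp1, Mogat1, Mogat2, Npc1l1 and Mttp. The lists were described by counts and medians and not by a set test. Promoter sequences are from RefSeq, which held 5 of the 6 genes and not Clps.

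Mice carry the numbers 1 to 3 in each group. Over the genes tested, same-numbered arrays deviated together from their group means (r of 0.21, 0.34 and 0.20). Control replicate 1 and HDAC2 KO replicate 3 did so nearly as much (r of 0.18), and the remaining unlike-numbered pairs had a negative r. Deviations from a group mean cancel within the group, so a positive r in some pairs forces a negative r in others. The negative values are thus no separate sign of pairing. The mouse numbers were treated as pairs in an alternative fit, although no label states a pairing.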

Additional observations from a re-analysis of the deposited data

How the results depend on the processing

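The differences of Pnliprp2, Clps, Cela1, Pnliprp1 and Cel kept their sign in all 26 values under other settings. There they moved by less than 1 SD between replicates. Some of these values could not move. Leaving out _x_at, _s_at and _a_at probe sets kept the leading probe set of every gene. Averaging the probe sets of a gene changed nothing for Cela1, Cel and Pnliprp1, which have 1 each. The differences also kept their sign in all 30 values with 1 array left out. In groups this small, leaving out 1 array cannot move a difference by 1 SD, so that limit tests nothing there. Nor can it change the sign where the groups do not overlap, so only Cel could have changed sign. Without single arrays the differences ran from -1.23 to -1.19 for Pnliprp2, -0.68 to -0.63 for Clps and -0.26 to -0.21 for Cela1. They ran from -0.55 to -0.39 for Pnliprp1 and -0.28 to -0.03 for Cel, whose signal is at background. With the replicate number as a block the differences of Pnliprp2, Clps and Cela1 stayed at -1.21, -0.65 and -0.23, which a balanced block cannot change. In that fit 1943 genes were called against 1952. Over all genes, 3506 were called with array weights, 1632 of them lower, and between 1130 and 2107 without single arrays, 506 to 885 of them lower. The lowest counts were without control replicate 1 (1130 and 506), and counts of 1276 without control replicate 2 and 1274 without HDAC2 KO replicate 1 also moved by over 1.5 times.

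Counts called in small lists moved more, and the causes were not tested beyond the number of genes a filter admits. Acinar secretory genes, 1 in the main setting, were 2 without a filter, over all probe sets and with array weights, and 3 with an intensity trend. Regulators, 1 in the main setting, were 2 with the 60th percentile filter, repeated quantile normalization or an intensity trend, and 3 with array weights. Islet markers went from 1 to 0 without a filter, without _x_at, _s_at and _a_at probe sets, and when any array but HDAC2 KO replicate 2 was left out, so that Gcg lost its call there. With the 60th percentile filter other lipases gave 4, cofactors 1, uptake genes 4, elastase-related genes 1, T cells 0 and mast cells 1. Without a filter T cells gave 8 and mast cells 4, and over all probe sets 9 and 5. Array weights gave 5 macrophage, 5 Paneth and 7 epithelial genes, and an intensity trend 5 Paneth and 7 epithelial genes. Epithelial genes were 2 over all probe sets, and tissue-foreign genes 1 without the _x_at, _s_at and _a_at probe sets. Probe set affinity and the low signal of Cel and Pnliprp1 limit what 6 arrays can show.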
